A study of Mus musculus with 6 samples.

Results

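The linker and core histone genes are described here in memory phenotype CD4+ T cells of mice with experimental autoimmune encephalomyelitis (EAE), an induced inflammatory disease of the central nervous system. Members were all probe sets, the groups of oligonucleotides that read one transcript on the array, whose platform annotation named exactly 1 gene of the linker (H1f), core (H2ac, H2bc, H3c, H4c and older Hist1h to Hist4h symbols) or replacement histones (H2ax, H2az1, H3f3a, H3f3b). This gave 23 probe sets for 17 genes, of 45037 probe sets that were not array controls and of 18193 genes with a probe set of their own. Linker histones had 9 probe sets for 6 genes, core histones 9 for 7 genes, and replacement histones 5 for 4 genes. No H4 gene had a probe set of its own. A further 24 probe sets were annotated to several histone or histone-related genes at once and are described separately.

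The cells of the CNS mem group came from the spinal cord, and those of the dLN mem group from the draining inguinal lymph node, with 3 arrays each. All mice were female C57BL/6 animals aged 8 to 10 weeks, immunised with the myelin peptide MOG35-55 and taken at acute clinical disease, so both groups share the immunisation and there is no group of healthy mice. The labels do not say how many mice one array holds or whether arrays of one group came from separate mice, and the p-values below cover the spread between these 6 arrays alone, part of which may be technical. RNA was amplified in 2 cycles from very small inputs and labelled from the 3' end before hybridisation. Array intensities had medians between 68 and 71 and ranged from 9 to 39505. Of the T cell markers, 8 of 10 were measured and none was called by limma (adjusted p below 0.05). At an unadjusted p below 0.05, 1 was lower. The summed intensity of the 8 was 38748 to 46909 in CNS mem and 39443 to 54472 in dLN mem arrays. Of 3 markers of memory or naive state, 2 were measured and none was called with tissue alone. Ccr7 read 143, 111 and 353 in CNS mem and 2066, 1062 and 1101 in dLN mem arrays. Its log2 difference was -2.92 ± 0.49 (SE, limma adjusted p = 0.0691). Cd44, also among the T cell markers, had a log2 difference of 0.18 ± 0.22 (adjusted p = 0.844). All 15 macrophage, monocyte and microglia markers had a positive difference (median log2 1.74), and none was called, although 13 had an unadjusted p below 0.05 and the CNS mem arrays were all above the dLN mem arrays for 13. Their summed intensity was 1526 to 7440 in CNS mem and 785 to 921 in dLN mem arrays. In a fit with the array number as a block, 5 of the 15 were called higher, as was 1 neutrophil marker, against 2.47% of all probe sets. With it, 2 B cell markers were called lower, as was Ccr7 (limma adjusted p = 0.0282), against 3.74% of all probe sets. All 8 neutrophil markers measured were also positive (median log2 1.31), with none called, 2 at an unadjusted p below 0.05 and sums of 848 to 2400 against 443 to 606. Of 9 B cell markers, 4 were positive and 5 negative (median log2 -0.10), and 1, Cd22, was called lower with tissue alone. The B cell sums were 604 to 997 against 1248 to 1568. Cd22 by itself read 108, 98 and 116 in CNS mem and 620, 679 and 750 in dLN mem arrays. Of 9 neural markers, 8 were positive and 1 negative (median log2 0.13), and none was called, even at an unadjusted p below 0.05. The neural sums were 3775 to 6348 against 4145 to 6454. Most of each was Mbp, which read 5981, 4784 and 3397 in CNS mem and 6110, 4777 and 3798 in dLN mem. In these bulk samples, fewer cells of a type and less RNA per cell cannot be told apart.

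Core histones H2A, H2B, H3 and H4 form the protein spool of the nucleosome, and linker histone H1 binds where DNA enters and leaves it and compacts the chromatin fibre. Most core and somatic H1 genes are replication-dependent: they lie in clusters, are transcribed in S phase, and their mRNAs end in a stem-loop bound by SLBP in place of a poly(A) tail. Replacement histones such as H2A.Z and H3.3 are made throughout the cell cycle from polyadenylated mRNAs, and 3' labelling of the usual kind starts from a poly(A) tail, so a signal for a replication-dependent gene need not follow its total mRNA.

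Promoter windows of 150 bases before the annotated start were available from RefSeq (build GRCm38.p6) for 14 of the 17 genes. No window was used for H2ax, H2bc21 and H3c7. Of the 4 sequences below, H1f2 is the member whose signal differed most between the tissues, and H3c11 the core gene with the largest positive difference. H1f4 and H1f6 are linker genes not called whose windows, like that of H1f2, held the motif AAACACA. The linker genes H1f7, H1f8 and H1f10, whose windows lacked it, were not called either and are not printed. Each of the 4 sequences is printed 5′ to 3′ on the gene's strand, and capitals mark the motifs searched on both strands.
H1f2, chr13:23738657-23738806, plus strand: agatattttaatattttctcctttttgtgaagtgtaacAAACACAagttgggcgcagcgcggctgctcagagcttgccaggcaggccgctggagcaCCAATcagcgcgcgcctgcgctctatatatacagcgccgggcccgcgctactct
H1f4, chr13:23622559-23622708, minus strand: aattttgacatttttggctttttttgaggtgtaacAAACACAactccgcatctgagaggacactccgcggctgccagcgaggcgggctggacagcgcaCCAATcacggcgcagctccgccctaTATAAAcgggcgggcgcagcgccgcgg
H1f6, chr13:23695661-23695810, plus strand: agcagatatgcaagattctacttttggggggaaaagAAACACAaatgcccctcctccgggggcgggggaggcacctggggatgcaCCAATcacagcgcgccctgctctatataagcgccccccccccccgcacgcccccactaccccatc
H3c11, chr13:21783398-21783547, minus strand: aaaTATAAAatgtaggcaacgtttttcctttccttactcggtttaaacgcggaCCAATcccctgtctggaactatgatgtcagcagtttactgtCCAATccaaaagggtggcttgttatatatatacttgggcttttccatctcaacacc
The motif AAACACA, known as the H1 box, was in 3 of 6 linker windows (H1f2, H1f4 and H1f6), in 0 of 5 core windows and in 0 of 3 replacement windows, against 3.53% of 32851 mouse promoter windows of this length. CCAAT was in 4 of 6 linker, 5 of 5 core and 3 of 3 replacement windows, against 24.5% of all windows. TATAAA was in 4 of the 14 windows, against 7.57%, and the octamer ATTTGCAT in 2 of 14 (H2bc18 and H3f3b), against 0.998%. H1f2, H1f4 and H1f6 share the H1 box and a downstream CCAAT, while their array signals differed as given next. A match is a description of these letters and not a binding site.

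Among linker histones, H1f2 rose in spinal cord cells by more than 10-fold on 2 of its 3 probe sets, and no probe set of another linker gene was called. H1f2 encodes H1.2, one of the main somatic linker histones. Probe set 1416101_a_at read 13245, 9215 and 7992 in CNS mem arrays 1 to 3, and 1013, 774 and 764 in dLN mem arrays. On the log2 scale this is 13.28 ± 0.38 in CNS mem and 9.72 ± 0.23 in dLN mem (SD, n = 3 each), a difference of 3.56 ± 0.23 (SE), or 11.8-fold, with a limma adjusted p of 0.00734. The lowest CNS mem array stood far above the highest dLN mem array. Probe set 1436994_a_at read 5187, 4634 and 4211 in CNS mem and 265, 372 and 370 in dLN mem arrays, a log2 difference of 3.81 ± 0.17 (14.1-fold, limma adjusted p = 0.00306). Here too the groups were far apart. Of all 45037 probe sets, 37 had a larger positive difference than the first and 27 than the second.

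The third H1f2 probe set, 1438204_at, read 157, 161 and 125 in CNS mem and 114, 126 and 102 in dLN mem arrays. Its log2 difference was 0.37 ± 0.15 (1.29-fold, limma adjusted p = 0.416), and CNS mem array 3 was below dLN mem array 2, so the groups overlapped. The 3 probe sets of H1f2 therefore had the same sign but not the same size. Within pairs of arrays of one number, CNS mem over dLN mem was 13.1, 11.9 and 10.5 for 1416101_a_at and 19.6, 12.5 and 11.4 for 1436994_a_at, against 1.38, 1.28 and 1.23 for 1438204_at. Without CNS mem array 2, 1416101_a_at was no longer called (adjusted p = 0.0597) although its log2 difference was 3.61; 1436994_a_at was called in each of the 6 fits that left out 1 array, with adjusted p between 0.0159 and 0.0392.

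**Figure D1:**
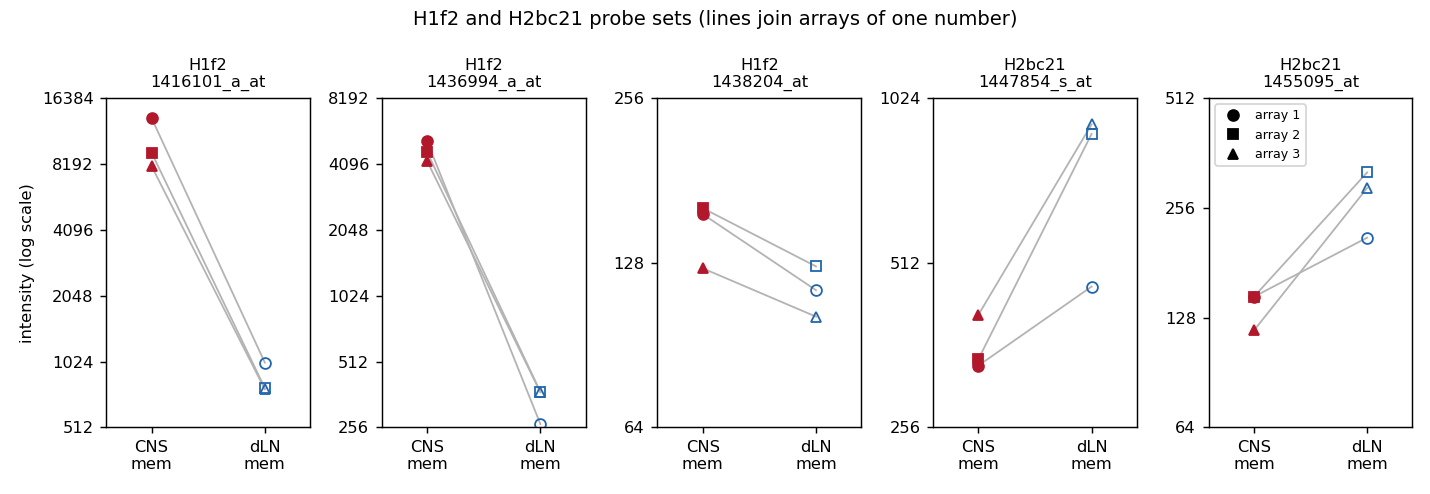
Intensity on a log2-spaced axis, with its own range in each panel, of the 3 H1f2 and the 2 H2bc21 probe sets, CNS mem at the left and dLN mem at the right, with 1 symbol for each array number and lines joining arrays of one number. CNS mem arrays lie above dLN mem arrays on 1416101_a_at and 1436994_a_at and below them on both H2bc21 probe sets.

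Macrophage marker values stand beside H1f2 because all of them had positive differences as well. The mean log2 intensity over the 15 markers was 6.31, 7.87 and 7.44 in CNS mem arrays 1 to 3, and 5.53, 5.50 and 5.68 in dLN mem arrays. CNS mem array 1 had the lowest macrophage mean of the 3 spinal cord arrays and the highest H1f2 value on both probe sets that rose. Among the defining markers, Lyz2, the macrophage lysozyme, read 245, 1771 and 563 in CNS mem and 78, 81 and 78 in dLN mem, and C1qb, a complement chain made by macrophages and microglia, 42, 176 and 150 in CNS mem and 13, 14 and 12 in dLN mem. With the block their limma adjusted p was 0.0418 for Lyz2 and 0.0263 for C1qb. The part of these cells in the H1f2 difference was not tested.

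The other 6 linker probe sets gave log2 differences between -0.17 and 0.20 with limma adjusted p between 0.756 and 0.913, and none had an unadjusted p below 0.05. Their intensities were 22 to 109 in all arrays. H1f10, which encodes the replacement-type linker histone H1X, read 68, 81 and 73 in CNS mem and 71, 58 and 78 in dLN mem arrays (log2 difference 0.11 ± 0.15, adjusted p = 0.867). H1f6, the testis linker histone H1t, read 83, 77 and 109 in CNS mem and 78, 75 and 86 in dLN mem (0.16 ± 0.16, adjusted p = 0.806). The groups overlapped for both genes. The remaining 4 probe sets had means below the 40th percentile of all probe sets, an intensity of 48.2, where a small difference could not be told from background. H1f4, another somatic linker histone, read 47, 50 and 39 in CNS mem and 39, 47 and 33 in dLN mem. H1f8, the oocyte linker histone, read 36, 35 and 41 in CNS mem and 35, 31 and 39 in dLN mem. For H1f7, a linker histone of spermatids, 1430181_at read 34, 37 and 40 in CNS mem and 44, 35 and 47 in dLN mem, and 1441954_s_at 23, 24 and 27 in CNS mem and 22, 26 and 23 in dLN mem. None of these 4 separated the tissues.

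Over the 23 member probe sets, 2 were called higher in CNS mem, both of H1f2, against 0.573% of all probe sets. Those called lower were 0, against 0.613% of all probe sets. At an unadjusted p below 0.05, 4 members were higher in the limma fit, against 5.15% of all probe sets. These were the 3 probe sets of H1f2 and that of H3c11. At that threshold 2 were lower, both of H2bc21, against 6.67% of all probe sets. The share of members that was lower is near the background. The 3 CNS mem arrays all lay above the 3 dLN mem arrays for 4 members, against 8.3% of all probe sets. These were 2 probe sets of H1f2, H3c11 and H3c7. They all lay below for 2 members, both of H2bc21, against 7.57% of all probe sets, and 17 overlapped. The median log2 difference was 0.16 over the 9 linker probe sets (8 positive, 1 negative), 0.31 over the 9 core probe sets (7 positive, 2 negative) and -0.20 over the 5 replacement probe sets (2 positive, 3 negative), beside 0.02 over all probe sets. The core median was 0.04 without CNS mem array 3, and the replacement median was -0.0044 without dLN mem array 2 and 0.04 with 1 probe set a gene. The linker median was 0.37 when dim probe sets were left out. The linker median minus the core median was -0.16 (0.06 when dim probe sets were left out), so the median of the linker class did not carry the H1f2 difference. Without H1f2 the linker median was 0.10.

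**Figure D2:**
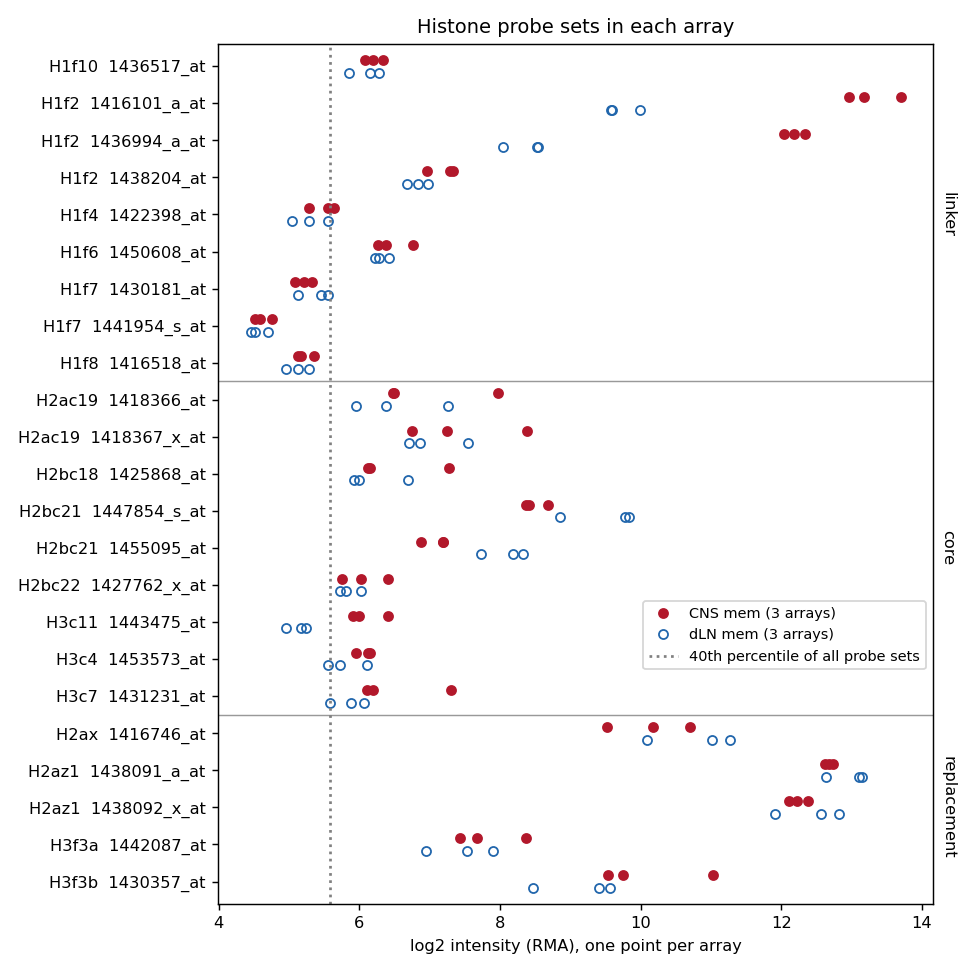
Log2 intensity of the 23 histone probe sets in each of the 6 arrays, 1 point per array, CNS mem filled and above, dLN mem open and below, with the 40th percentile of all probe sets as a dotted line. The first 2 H1f2 rows show CNS mem points near 12 to 14 and dLN mem points near 8 to 10, and levels of different probe sets cannot be set against each other.

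Arrays that share a number deviated together from their group means (correlations of 0.608, 0.554 and 0.773 over all probe sets), so the fit was also made with the number as a block. With it, 3 members were called higher, against 2.47% of all probe sets, and 2 lower, against 3.74% of all probe sets. The 3 were both H1f2 probe sets already called (adjusted p = 0.00234 for 1416101_a_at and 0.00343 for 1436994_a_at) and H3c11. The 2 lower were H2bc21 probe set 1455095_at and H2ax.

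None of the 9 core probe sets was called in the limma fit with tissue alone. At an unadjusted p below 0.05, 1 was higher, against 5.15% of all probe sets. At that threshold 2 were lower, both of H2bc21, against 6.67% of all probe sets. H3c11, a replication-dependent H3 gene, read 85, 60 and 64 in CNS mem and 36, 38 and 31 in dLN mem arrays. All 3 CNS mem arrays were above the dLN mem arrays, which themselves lay under the 48.2 mark for dim probe sets. The log2 difference was 0.98 ± 0.17 (1.97-fold, limma adjusted p = 0.0725, and 0.0286 with the array number as a block). The limma adjusted p was also below the threshold with a trended robust variance (0.0372) and with 1 probe set a gene (0.0488). H3c11 was not called in any of the 6 fits without 1 array (adjusted p between 0.123 and 0.211) or with a floor (0.154). Nor was it called with quantile normalisation (0.0878), median centring (0.0822) or dim probe sets left out (0.0698). H3c7, also a replication-dependent H3 gene, read 158, 73 and 69 in CNS mem and 48, 67 and 59 in dLN mem (0.69 ± 0.35, adjusted p = 0.538). Its groups did not overlap, but CNS mem arrays 2 and 3 were only narrowly above the highest dLN mem array. H3c4 read 70, 71 and 62 in CNS mem and 47, 69 and 53 in dLN mem, with overlapping groups (0.28 ± 0.17, adjusted p = 0.618).

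H2bc21 was the core gene with the opposite sign: both of its probe sets were near 2-fold lower in spinal cord arrays, without passing the threshold in the fit with tissue alone. It encodes an H2B variant known from mouse olfactory neurons. Probe set 1455095_at read 146, 146 and 118 in CNS mem and 212, 320 and 290 in dLN mem arrays, a log2 difference of -0.99 ± 0.19 (limma adjusted p = 0.0958, and 0.0432 with the block). Probe set 1447854_s_at read 332, 341 and 411 in CNS mem and 463, 880 and 916 in dLN mem, a log2 difference of -1.001 ± 0.29 (adjusted p = 0.237, and 0.0527 with the block). On both, every CNS mem array lay below every dLN mem array. CNS mem over dLN mem was 0.689, 0.456 and 0.407 within array numbers for 1455095_at and 0.717, 0.388 and 0.449 for 1447854_s_at, the smallest difference in each case being that of number 1. Both negative core probe sets were those of H2bc21, so the other 7 all had positive differences, with a median of 0.43. None of these 7 was called with tissue alone, and 24340 of all 45037 probe sets had a positive difference.

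**Figure D3:**
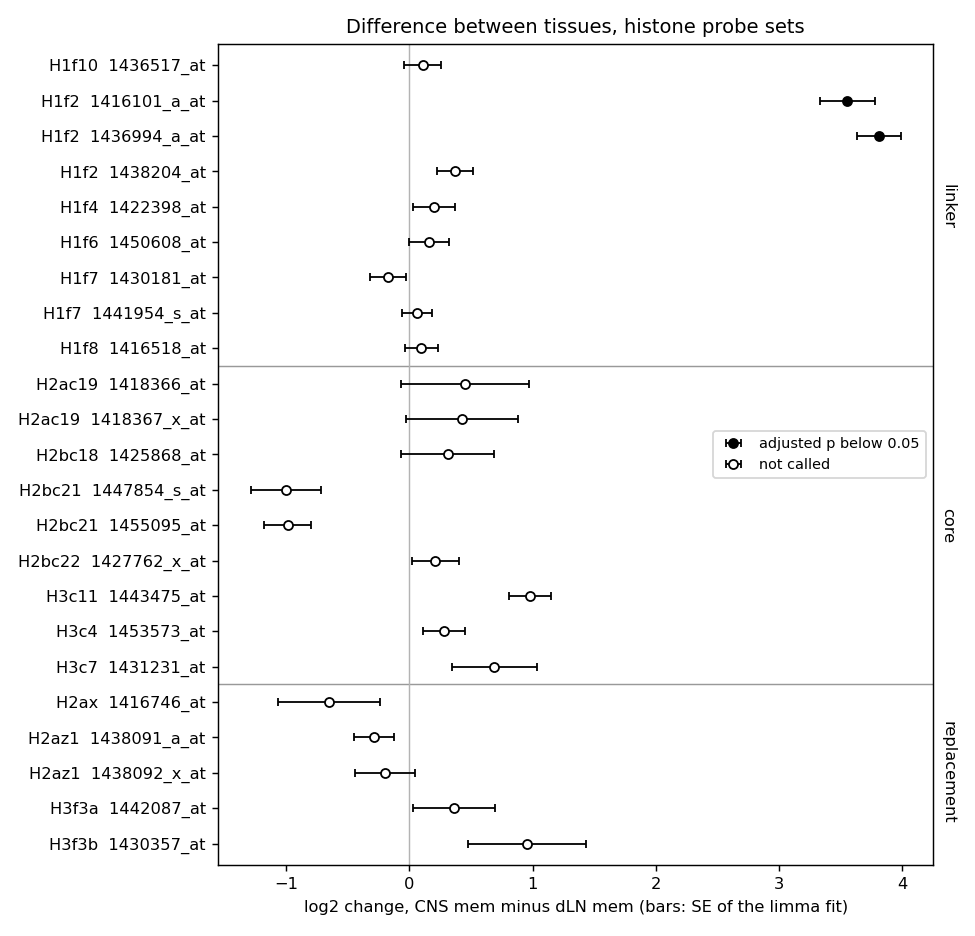
Log2 difference, CNS mem minus dLN mem, of the 23 histone probe sets with the standard error of the limma fit; filled points had an adjusted p below 0.05 in the fit with tissue alone. The 2 filled points are H1f2 at 3.56 and 3.81, and the other 21 lie between -1.001 and 0.98.

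Each of the remaining H2A and H2B probe sets had its highest value in the array of the same number in both tissues. Both H2ac19 probe sets, for a replication-dependent H2A gene, were highest in array 3 of each tissue. Probe set 1418366_at read 90, 89 and 250 in CNS mem and 62, 83 and 153 in dLN mem arrays (0.45 ± 0.52, limma adjusted p = 0.833). Probe set 1418367_x_at read 152, 108 and 333 in CNS mem and 116, 104 and 187 in dLN mem (0.43 ± 0.46, adjusted p = 0.815). H2bc18 showed another order, with array 1 highest in both tissues: 155, 70 and 71 in CNS mem and 103, 61 and 64 in dLN mem (0.31 ± 0.38, adjusted p = 0.842). H2bc22 read 65, 54 and 85 in CNS mem and 53, 56 and 65 in dLN mem, a small difference beside its spread (0.21 ± 0.19, adjusted p = 0.775). Both H2B genes are replication-dependent, and the groups overlapped for all 4 probe sets.

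Array 3 was the highest of its tissue in both groups for 7 of the 23 members and for 7838 of 45037 probe sets in all. A wide gap of this kind was on the brightest probe set annotated to several H2A genes (1438009_at, not a member), which read 90, 87 and 1309 in CNS mem and 150, 170 and 3082 in dLN mem arrays. The brightest for several H4 genes (1422948_s_at) read 572, 355 and 785 in CNS mem and 543, 476 and 1455 in dLN mem. The array's control probe sets for RNA length also set array 3 apart: the 5' over 3' ratio of Gapdh, a housekeeping gene, was 0.0532, 0.0405 and 0.242 in CNS mem and 0.0709, 0.0307 and 0.251 in dLN mem arrays 1 to 3. For Actb it was 0.269, 0.203 and 0.405 in CNS mem and 0.483, 0.0886 and 0.568 in dLN mem. Array 3 thus had the highest ratio of its tissue for both controls, and the part of this in the H2A and H4 values was not tested. On both H1f2 probe sets that rose, array 3 had the lowest CNS mem value. The part of RNA length in the H1f2 values was not tested either.

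**Figure D4:**
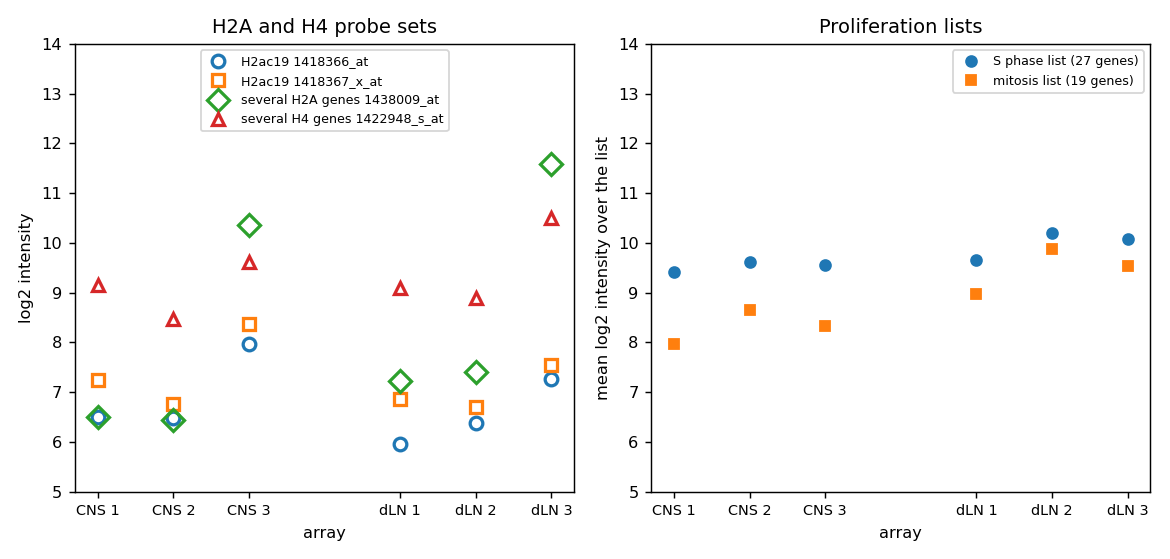
Log2 intensity by array of H2ac19 and of probe sets annotated to several H2A or H4 genes (left), and mean log2 intensity of the S phase and mitosis lists (right), CNS mem arrays before dLN mem arrays. The 4 histone probe sets are highest in array 3 of each tissue, while the S phase and mitosis means are highest in array 2.

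Of the 17 probe sets annotated to several core histone genes, 1 was called higher in the limma fit with tissue alone, against 0.573% of all probe sets. This probe set for several H2B genes (1418072_at) read 248, 201 and 259 in CNS mem and 47, 71 and 90 in dLN mem arrays, a log2 difference of 1.81 ± 0.26 (3.5-fold, adjusted p = 0.0424). The groups were clearly apart, although the call was lost in each of the 6 fits without 1 array, with adjusted p between 0.0548 and 0.174. Which of its genes gave the signal cannot be told from this probe set. The median over these 17 was 0.13, with 11 positive. With the block, 2 of the 17 were called higher, against 2.47% of all probe sets, and 1 lower, against 3.74% of all probe sets. The last was 1438009_at (limma adjusted p = 0.0242), in which CNS mem was below dLN mem within each array number. The 7 probe sets annotated to several replacement histone or related genes had a median of -0.23 and none was called by limma. At an unadjusted p below 0.05, 1 was lower, against 6.67% of all probe sets.

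Replacement histones gave no call in the limma fit with tissue alone, and none of the 5 probe sets had an unadjusted p below 0.05. H2ax encodes H2A.X, the variant phosphorylated at DNA breaks. It read 1667, 1160 and 735 in CNS mem and 2458, 2058 and 1089 in dLN mem arrays, a log2 difference of -0.65 ± 0.41 (limma adjusted p = 0.642). Its groups overlapped, but CNS mem was lower within each array number, with ratios of 0.678, 0.564 and 0.675, and with the block the adjusted p was 0.0403. H2az1 encodes H2A.Z, a variant found at promoters. Its probe set 1438091_a_at read 6830, 6273 and 6571 in CNS mem and 6361, 9097 and 8842 in dLN mem (-0.29 ± 0.16, adjusted p = 0.6). Probe set 1438092_x_at read 4776, 5305 and 4427 in CNS mem and 3859, 7239 and 6064 in dLN mem (-0.20 ± 0.25, adjusted p = 0.847). On both, dLN mem array 1 was below the other dLN mem arrays and below at least 2 of the CNS mem arrays.

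The 2 probe sets with a single H3.3 gene had the opposite sign. H3f3b read 2088, 741 and 863 in CNS mem and 760, 355 and 680 in dLN mem arrays, a log2 difference of 0.95 ± 0.48 (1.94-fold, limma adjusted p = 0.538, and 0.0823 with the block). CNS mem array 2 was below dLN mem array 1, so the groups overlapped, while within array numbers the ratios were 2.75, 2.09 and 1.27. H3f3a read 205, 330 and 173 in CNS mem and 185, 240 and 124 in dLN mem (0.36 ± 0.33, adjusted p = 0.775), with ratios of 1.11, 1.38 and 1.4. Neither differed beyond the spread between arrays. Of 5 further probe sets annotated to both H3.3 genes and related genes together, 3 were negative and 2 positive (log2 differences between -0.53 and 0.33) and none was called, with or without the block, nor had an unadjusted p below 0.05 in limma. The H3.3 probe sets as a whole therefore gave no common direction.

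Genes of DNA replication and division were listed because replication-dependent histone mRNAs are made in S phase. Of 19 mitosis genes measured, all had negative differences (median log2 -1.11), 0 were called higher and 3 fell, against 0.613% of all probe sets called lower. Cdc20, an activator of the anaphase-promoting complex, read 754, 833 and 813 in CNS mem and 1752, 2517 and 2546 in dLN mem arrays (-1.49 ± 0.17, limma adjusted p = 0.0233). Ube2c, the ubiquitin-conjugating enzyme of that complex, read 177, 156 and 175 in CNS mem and 315, 397 and 386 in dLN mem (-1.11 ± 0.13, adjusted p = 0.025). The mitotic kinase Plk1 also fell (-0.93 ± 0.14, adjusted p = 0.0455). Without single arrays these calls were lost, except in 1 of 6 fits for Cdc20 and for Ube2c. With the block 16 of the 19 were called lower, against 3.74% of all probe sets. Ccnb2, cyclin B2, read 491, 516 and 372 in CNS mem and 1193, 2476 and 1557 in dLN mem (-1.87 ± 0.29, adjusted p = 0.0548). Of 27 S phase genes, 24 were negative (median -0.53) and none was called by limma. At an unadjusted p below 0.05, 7 were lower, against 6.67% of all probe sets. With the block 4 of the S phase genes were called lower, against 3.74% of all probe sets. Among the S phase genes Uhrf1, which maintains DNA methylation at replication, read 435, 428 and 652 in CNS mem and 847, 929 and 952 in dLN mem (-0.88 ± 0.19, adjusted p = 0.129). Mcm7, a subunit of the replicative helicase, read 4310, 3688 and 3193 in CNS mem and 5666, 5376 and 5705 in dLN mem (-0.59 ± 0.14, adjusted p = 0.151). Tk1, thymidine kinase, read 197, 291 and 432 in CNS mem and 572, 454 and 936 in dLN mem (-1.10 ± 0.38, adjusted p = 0.327). Prim1, a primase subunit, read 631, 1089 and 931 in CNS mem and 1100, 1714 and 1491 in dLN mem, the groups just not overlapping (-0.71 ± 0.26, adjusted p = 0.364). The H1f2 difference thus had the opposite sign to that of most S phase and mitosis genes. The sign was also positive for 7 of the 9 core probe sets, beside 24340 of 45037 probe sets in all. None of the 9 was called with tissue alone.

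The factors that transcribe and process histone mRNAs were measured for 22 genes, of which 20 were negative (median log2 -0.22). In limma none was called with tissue alone. At an unadjusted p below 0.05, 1 was lower, against 6.67% of all probe sets. With the block 1, Cdk2, was called lower, against 3.74% of all probe sets. Slbp, the stem-loop binding protein, read 2803, 2998 and 1769 in CNS mem and 3079, 3849 and 2424 in dLN mem arrays (-0.32 ± 0.27, adjusted p = 0.752). Npat, the coactivator of histone genes in S phase, read 620, 798 and 694 in CNS mem and 675, 1628 and 1607 in dLN mem (-0.79 ± 0.37, adjusted p = 0.494). Cpsf3, the endonuclease that cleaves the histone mRNA 3' end, read 4189, 3860 and 4135 in CNS mem and 4561, 6222 and 5979 in dLN mem (-0.45 ± 0.15, adjusted p = 0.308). For Npat and Slbp the groups overlapped, as they did for Cdk2 and Zfp473, given next. For Cpsf3 every CNS mem array was below every dLN mem array. Cdk2, the kinase that activates NPAT, read 262, 313 and 420 in CNS mem and 393, 469 and 650 in dLN mem (-0.60 ± 0.25, adjusted p = 0.442, and 0.0357 with the block), with ratios within array numbers of 0.667, 0.667 and 0.646. Zfp473, a zinc finger protein of histone pre-mRNA processing, had the opposite sign, with 79, 88 and 71 in CNS mem and 71, 59 and 63 in dLN mem (0.30 ± 0.13, adjusted p = 0.462). Of 24 histone chaperone and deposition genes, 21 were negative (median -0.32) and none was called by limma with or without the block. At an unadjusted p below 0.05, 1 was higher and 4 were lower, against 5.15% and 6.67% of all probe sets. Asf1b, a chaperone of newly made H3 and H4, read 874, 806 and 839 in CNS mem and 1110, 1594 and 1498 in dLN mem (-0.72 ± 0.16, adjusted p = 0.138). Anp32e, which removes H2A.Z from chromatin, read 3916, 4560 and 4286 in CNS mem and 4800, 7527 and 8410 in dLN mem (-0.66 ± 0.23, adjusted p = 0.324). Rbbp7, a histone-binding subunit of several chromatin complexes, read 8660, 8455 and 7210 in CNS mem and 10935, 13526 and 11843 in dLN mem (-0.58 ± 0.13, adjusted p = 0.15). Mms22l, which acts at damaged replication forks, had the opposite sign, with 567, 682 and 605 in CNS mem and 490, 465 and 501 in dLN mem (0.35 ± 0.11, adjusted p = 0.298). The groups did not overlap for any of these 4 chaperone and deposition genes, which were picked as those of lowest p in the list. Over all 24, the CNS mem arrays were all above the dLN mem arrays for 1 gene, against 8.3% of all probe sets. They were all below for 5 genes, against 7.57% of all probe sets.

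Among 6 other histone variants measured, Cenpa fell and no other was called by limma with tissue alone (median log2 -0.08). Cenpa, the H3 variant of centromeres, read 1197, 1234 and 1184 in CNS mem and 2464, 2690 and 2217 in dLN mem arrays, a log2 difference of -1.02 ± 0.11 (limma adjusted p = 0.0194). It was called in 1 of the 6 fits that left out an array. H2az2, the second H2A.Z gene, read 1397, 1008 and 1304 in CNS mem and 2329, 2089 and 2101 in dLN mem, with every CNS mem array lower (-0.83 ± 0.15, adjusted p = 0.0865, and 0.028 with the block). H2aj, an H2A variant, read 2940, 1347 and 2915 in CNS mem and 2373, 2245 and 3091 in dLN mem, with overlapping groups (-0.17 ± 0.34, adjusted p = 0.911). H2al2a, a testis variant, read 27 to 30 in all arrays.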

How the data were processed

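The deposited values are array intensities that the authors made with RMA, per the submitters' processing notes, on a linear scale and rounded to whole numbers; its version was not stated there. Their log2 was taken. Genes were named from the platform annotation. All 45037 probe sets that were not controls were fitted with limma 3.58.1 (R 4.3.3, lmFit and eBayes, tissue as the single term, two-sided). P-values were adjusted across the whole table by Benjamini-Hochberg, with calls made below 0.05; the code was tested on simulated data. With 3 against 3 arrays an exact permutation test cannot go below 0.1, so none was used.

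Members and gene lists were chosen with earlier results of these data known. All members are given with their values, as are up to 4 genes of each list by p, taking 1 probe set a gene; Slbp was added for its role, and the single marker genes and the probe sets for several genes were picked after their values were seen. A class or list is described by counts and median. The array numbers come from the sample titles, and their pairing was read from the data: arrays of one number correlated at 0.608, 0.554 and 0.773, and other pairs between -0.549 and -0.0438. Any 2 arrays differed in at least 93.5% of probe sets. The number of arrays limits the precision.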

Additional observations from a re-analysis of the deposited data

How the results depend on the processing

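The fit was repeated under 14 other settings: the array number as a block, each array left out, dim probe sets left out, median centring, quantile normalisation, a floor, trended robust variance, 1 probe set a gene and a threshold of 0.01. The number of histone probe sets called higher was 2, with a range of 1 to 2 over the fits without 1 array (1 without CNS mem array 2) and 3 with the block or a trended variance, where H3c11 was added; with 1 probe set a gene the 2 were H1f2 and H3c11. The number called lower was 0, also over the fits without 1 array, and 2 with the replicate block. The sign was kept in every setting by 18 of the 23 members. Among those with values above background, H2ac19 turned to -0.0451 (1418366_at) and -0.0337 (1418367_x_at) without CNS mem array 3, H2bc18 to -0.0662 without CNS mem array 1 and H1f10 to -0.0119 without dLN mem array 2. Over the fits without 1 array these ranged from -0.0451 to 0.81, from -0.0337 to 0.78, from -0.0662 to 0.55 and from -0.0119 to 0.20. The linker minus core difference of medians was -0.16, ranged from -0.37 to 0.08 without 1 array and was 0.06 without dim probe sets. Over the whole array, 258 probe sets were called higher and 276 lower. These counts became 1111 and 1683 with the block, 32 and 27 with a floor, and between 21 and 163 higher and between 10 and 144 lower without 1 array, lowest without CNS mem array 2. The causes were not tested.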
